A study of Homo sapiens with 4 samples.

Results

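The mRNAs of 10 enzymes of serine synthesis and folate one-carbon metabolism were followed in RPMI 8226, a human multiple myeloma cell line (labelled RPMI82266 for the samples), after knockdown of CELF2. The 10 genes were PHGDH, PSAT1 and PSPH, which make serine, and SHMT1, SHMT2, MTHFD1, MTHFD2, MTHFD1L, MTHFD2L and ALDH1L2, which move its one-carbon unit through folate. They were chosen by gene symbol, with earlier results of these data known. Each symbol had 1 row in the count table, and the genes are 10 of 78932 Ensembl genes listed and of 19511 genes tested. All 10 passed the filter on low counts. Cells were transfected for 72 hours with LNA ASOs, antisense oligonucleotides that carry locked nucleic acid bases and pair with a chosen RNA. One group of 2 libraries received the ASO against CELF2 at 5 nM, and the other group of 2 received a control LNA ASO, whose dose is not stated in the sources used here. CELF2 is an RNA-binding protein that acts in splicing and mRNA stability. All 4 libraries came from the same cell line, and the sample titles number the ASOs 1 and 2 in each group without saying whether a number marks a repeat or a different oligonucleotide. The libraries of a group were treated as replicates, so each SD (n = 2) may span 2 oligonucleotides. Separate cultures are not stated, and the spread that the p-values rest on may also be technical.

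Serine is built from the glycolytic intermediate 3-phosphoglycerate by a short chain of enzymes. PHGDH oxidises it, PSAT1 transfers an amino group from glutamate, and PSPH removes the phosphate. Serine hydroxymethyltransferase then passes a carbon from serine to tetrahydrofolate and leaves glycine, through SHMT1 in the cytosol and SHMT2 in mitochondria. In mitochondria MTHFD2 or MTHFD2L oxidises the folate-bound carbon, MTHFD1L releases it as formate, and ALDH1L2 can oxidise it to carbon dioxide while making NADPH. In the cytosol the single protein MTHFD1 takes formate back onto folate for the synthesis of purines and thymidylate. Proliferating cells, myeloma cells among them, use these units for nucleotides, and the transcription factors ATF4 and MYC are known regulators of several of the genes.

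Promoter sequences are shown for 4 enzymes whose mRNA was higher with the CELF2 ASO and for both whose mRNA was lower, because members of one pathway moved in 2 directions. Windows run 5′ to 3′ from 250 bases before to 50 bases after a RefSeq transcript start on GRCh38.p14, and 7 of the 10 enzymes matched an entry. PHGDH lies at chr1:119711684-119711983, plus strand. PSAT1 lies at chr9:78296875-78297174, plus strand. MTHFD2 lies at chr2:74198365-74198664, plus strand. MTHFD1L is given at 1 of its annotated starts, chr6:150866197-150866496, plus strand. SHMT1 lies at chr17:18363501-18363800, minus strand, and MTHFD1 at chr14:64388103-64388402, plus strand. Capitals mark matches on either strand to 3 motifs: TGATGNAA, the core of the composite element bound by ATF4 with a C/EBP partner, CACGTG, the E-box bound by MYC among others, and CCAAT (read as ATTGG on the other strand), the box bound by NF-Y.
PHGDH promoter: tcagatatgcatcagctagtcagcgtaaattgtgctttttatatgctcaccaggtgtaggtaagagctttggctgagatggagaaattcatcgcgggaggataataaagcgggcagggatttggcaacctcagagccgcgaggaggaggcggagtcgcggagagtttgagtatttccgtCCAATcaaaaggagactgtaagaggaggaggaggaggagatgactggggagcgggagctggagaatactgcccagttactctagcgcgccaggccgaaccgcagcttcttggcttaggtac
PSAT1 promoter: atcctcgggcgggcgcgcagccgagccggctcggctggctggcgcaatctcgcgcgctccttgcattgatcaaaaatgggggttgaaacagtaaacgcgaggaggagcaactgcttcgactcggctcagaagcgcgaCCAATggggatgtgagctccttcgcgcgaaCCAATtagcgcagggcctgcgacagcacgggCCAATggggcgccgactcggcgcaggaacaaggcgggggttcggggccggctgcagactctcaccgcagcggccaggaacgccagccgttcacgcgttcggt
MTHFD2 promoter: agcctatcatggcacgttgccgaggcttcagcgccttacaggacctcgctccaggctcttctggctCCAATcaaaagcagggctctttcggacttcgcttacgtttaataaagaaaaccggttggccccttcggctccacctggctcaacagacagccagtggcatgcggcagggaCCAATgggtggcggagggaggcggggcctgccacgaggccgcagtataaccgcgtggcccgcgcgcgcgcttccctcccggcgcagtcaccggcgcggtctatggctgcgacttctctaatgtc
MTHFD1L promoter: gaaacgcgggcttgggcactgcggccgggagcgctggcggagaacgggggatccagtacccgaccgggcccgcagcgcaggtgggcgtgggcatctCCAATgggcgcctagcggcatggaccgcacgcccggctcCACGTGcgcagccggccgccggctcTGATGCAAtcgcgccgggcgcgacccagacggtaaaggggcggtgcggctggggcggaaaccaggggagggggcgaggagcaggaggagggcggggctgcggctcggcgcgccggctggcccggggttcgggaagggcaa
SHMT1 promoter: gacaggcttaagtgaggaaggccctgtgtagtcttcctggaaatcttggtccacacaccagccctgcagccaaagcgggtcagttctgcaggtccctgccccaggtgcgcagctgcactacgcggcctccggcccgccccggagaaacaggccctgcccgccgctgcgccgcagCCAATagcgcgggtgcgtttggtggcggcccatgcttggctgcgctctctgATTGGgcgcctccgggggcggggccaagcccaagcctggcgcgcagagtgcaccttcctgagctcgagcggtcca
MTHFD1 promoter: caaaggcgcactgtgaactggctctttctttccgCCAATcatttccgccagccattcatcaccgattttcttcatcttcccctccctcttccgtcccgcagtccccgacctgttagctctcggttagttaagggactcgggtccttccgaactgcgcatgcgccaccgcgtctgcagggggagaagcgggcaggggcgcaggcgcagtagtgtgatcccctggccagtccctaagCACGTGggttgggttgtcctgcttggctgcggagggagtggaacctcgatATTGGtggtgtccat

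Of the 7 enzymes with an entry, 6 had a CCAAT box in a window, MTHFD2L being the exception, and 39.7% of all 27305 genes in the table had one in a window of 300 bases. PSPH, SHMT2 and ALDH1L2 were not searched. PSAT1, the aminotransferase, had 3 of them on the strand shown, beginning at positions -113, -83 and -52 from the start site, and 3.26% of all windows held 3 or more on either strand. The E-box was found in MTHFD1 at position -15 and in MTHFD1L, and in 8.77% of all genes. TGATGNAA was found in 1 of the 7 enzymes searched, MTHFD1L, and in 4.46% of all genes. That match, TGATGCAA at chr6:150866357-150866364, lies at position 25, -90 or -129 depending on which of 3 neighbouring annotated starts is counted from. The 3 motifs do not overlap one another in these windows. No TGATGNAA lay in the PHGDH, PSAT1 or MTHFD2 windows, which says only that these letters are not in these 300 bases. A match is a description of letters and not of binding.

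Total counts were 23599190 to 29161298 per library, and the libraries of a pair differed more between the CELF2 ASO libraries than between the controls, their biological coefficients of variation being 13.7% and 3.58%. CELF2 had 128.0 and 127.9 counts per 1000000 (CPM) with the control ASO and 56.6 and 48.8 CPM with the CELF2 ASO, or 2.43-fold lower (log2 fold change -1.28, standard error 0.09, edgeR adjusted p = 3.74e-05). All 9 plasma cell markers examined were tested, and their summed level was 3167 to 3379 CPM in the control and 3311 to 3861 CPM in the CELF2 ASO libraries. Single markers moved both ways, with 3 higher and 4 lower, where 27.6% and 28.0% of all genes tested were. Among them were SDC1 (2.34-fold lower, edgeR adjusted p = 0.012, or 0.0569 with no filter on low counts) and CD38 (2.43-fold higher, edgeR adjusted p = 0.00183). Of 10 myeloid markers, 4 had enough counts to be tested. Of these, 3 were lower with the CELF2 ASO, where 28.0% of all genes tested were lower. LYZ and S100A8 were at 0 in all 4 libraries. The list summed to 8.40 to 8.91 CPM in the control and 3.71 to 4.02 CPM in the CELF2 ASO libraries. The 12 T and NK cell markers summed to 291 to 297 CPM in the control and 58.3 to 92.2 CPM in the CELF2 ASO libraries, most of it CD8B, while CD3D and CD2 had no count in the control libraries and 2 and 0 counts each with the CELF2 ASO. The 11 stromal and epithelial markers summed to 124 to 127 CPM and 94.6 to 96.4 CPM, and the part of these lists in the results was not tested. The series text and the sample protocol differ on the library preparation, one naming poly(A) selection and the other removal of ribosomal RNA.

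Enzyme mRNAs rose in serine synthesis and in most of the mitochondrial folate branch and fell in the cytosolic branch. By the edgeR quasi-likelihood test with Benjamini-Hochberg adjustment over all genes, 7 of the 10 enzymes were higher with the CELF2 ASO, where 27.6% of all 19511 genes tested were higher. A further 2 were lower, where 28.0% of all genes were lower, and MTHFD2L did not pass. Expression changed broadly in this comparison, with 55.6% of genes called in one direction or the other. At least 2-fold rises were called for ALDH1L2, PHGDH and PSAT1, against 14.5% of all genes. The 10 enzymes had a median log2 fold change of 0.48, beside 0.04 over all genes tested. Without regard to sign, the median log2 fold change over all genes was 0.59. PSPH, MTHFD2, MTHFD1L, SHMT1, MTHFD1 and MTHFD2L changed by less than that. In all 10 the values of the 2 groups did not overlap, with 7 higher and 3 lower with the CELF2 ASO. Over all genes the groups did not overlap for 79.6%, 41.2% higher and 38.4% lower. In these bulk libraries a change in the number of cells of a kind and a change in RNA per cell cannot be told apart.

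**Figure D1:**
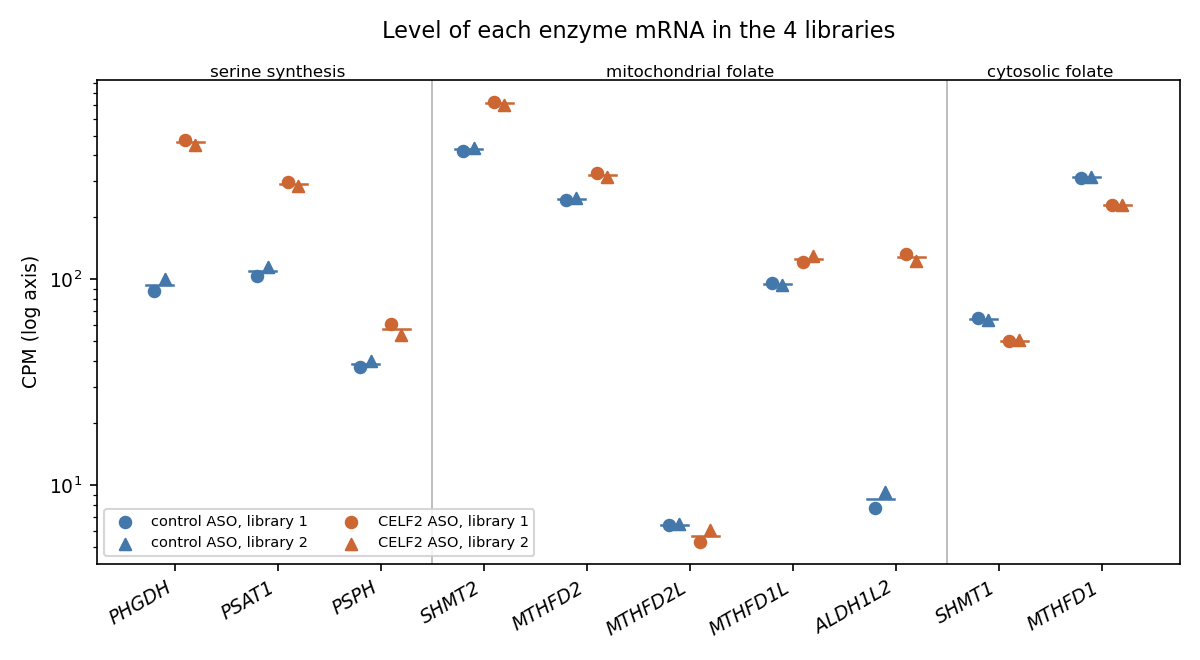
Level of each of the 10 enzyme mRNAs in CPM (log axis) in the 2 control ASO libraries (blue) and the 2 CELF2 ASO libraries (orange), with circles for library 1, triangles for library 2 and short lines for group means. The 2 groups do not overlap for any gene, and ALDH1L2 shows the widest gap, from 8.56 to 128 CPM on average.

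PHGDH encodes the first and committed enzyme of serine synthesis. It had 88.3 and 100.3 CPM in the control libraries and 477 and 450 CPM in the CELF2 ASO libraries. Both CELF2 ASO values lay far above both control values. PHGDH (ENSG00000092621, GRCh38 chromosome 1, 119648411 to 119744226, plus strand) went from 94.3 ± 8.49 to 464 ± 19.4 CPM (SD, n = 2), a 4.92-fold rise (log2 fold change 2.30, standard error 0.09, edgeR adjusted p = 6.18e-06). It ranked 574 of 19511 genes from the largest rise.

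PSAT1, the aminotransferase of the second step, had 104 and 115 CPM in the control libraries and 296 and 285 CPM with the CELF2 ASO. PSAT1 (ENSG00000135069, chromosome 9, 78297143 to 78330093, plus strand) rose 2.66-fold, from 109 ± 7.68 to 291 ± 7.73 CPM (SD, n = 2; log2 fold change 1.41, standard error 0.08, edgeR adjusted p = 1.63e-05). Reads may be shared with processed copies of the gene. The pseudogene PSAT1P3 held 54 and 37 control counts and 133 and 120 with the CELF2 ASO, and PSAT1P1 had 23 and 19 against 74 and 68. Summed over the 4 libraries, no row of a PSAT1 pseudogene held more than 1.67% as many counts as PSAT1.

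PSPH, the phosphatase of the last step, showed the smallest estimate of the 3 serine enzymes. Its values were 37.4 and 40.1 CPM in the control and 60.6 and 53.7 CPM in the CELF2 ASO libraries. PSPH (ENSG00000146733, chromosome 7, 56011051 to 56051604, minus strand) rose 1.48-fold, from 38.7 ± 1.85 to 57.2 ± 4.86 CPM (SD, n = 2; log2 fold change 0.56, standard error 0.09, edgeR adjusted p = 0.00179). The groups kept apart, although the CELF2 ASO pair differed by 0.17 on the log2 scale. Summed over PHGDH, PSAT1 and PSPH, the level was 230 and 255 CPM in the control and 834 and 789 CPM in the CELF2 ASO libraries, or 3.35 times the control mean. The estimated rise was larger for PHGDH than for PSAT1 and larger for PSAT1 than for PSPH, a difference between genes that was not itself tested.

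In the mitochondrial branch, SHMT2, which starts it by taking the carbon from serine, had 421 and 435 CPM in the control libraries and 728 and 705 CPM with the CELF2 ASO. SHMT2 (ENSG00000182199, chromosome 12, 57229327 to 57234935, plus strand) rose 1.67-fold, from 428 ± 9.87 to 717 ± 16.5 CPM (SD, n = 2; log2 fold change 0.74, standard error 0.07, edgeR adjusted p = 0.000117). In CPM the rise of 289 was next in size to the 369 of PHGDH. Its pairs were tight, with the libraries of each pair 0.05 apart on the log2 scale.

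MTHFD2, the dehydrogenase and cyclohydrolase that follows SHMT2, had 243 and 249 CPM in the control and 330 and 316 CPM in the CELF2 ASO libraries. MTHFD2 (ENSG00000065911, chromosome 2, 74198562 to 74217565, plus strand) was 1.31-fold higher (log2 fold change 0.39, standard error 0.07, edgeR adjusted p = 0.0024). This call was lost without control ASO library 1 (adjusted p = 0.103) or library 2 (adjusted p = 0.0726), fits in which the spread comes from the CELF2 ASO pair alone. Exons of SLC4A5 on the opposite strand cover 27.2% of the MTHFD2 exon bases, and SLC4A5 had 8 to 28 counts per library. Whether this overlap altered the MTHFD2 counts was not tested.

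MTHFD2L, its paralogue, was the enzyme that did not pass. It had 6.43 and 6.48 CPM in the control and 5.34 and 6.07 CPM in the CELF2 ASO libraries, from 145 to 180 counts per library. MTHFD2L (ENSG00000163738, chromosome 4, 74114174 to 74303099, plus strand) was estimated at -0.18 on the log2 scale (standard error 0.15, edgeR adjusted p = 0.328). The CELF2 ASO pair was 0.19 apart on the log2 scale, about the size of the estimated change.

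MTHFD1L, the mitochondrial synthetase that yields formate, had 96.0 and 94.0 CPM in the control and 122 and 129 CPM in the CELF2 ASO libraries. MTHFD1L (ENSG00000120254, chromosome 6, 150865549 to 151101887, plus strand) was 1.32-fold higher (log2 fold change 0.40, standard error 0.07, edgeR adjusted p = 0.00277). The call was lost without control ASO library 1 (adjusted p = 0.0711) or library 2 (adjusted p = 0.0917).

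ALDH1L2, the mitochondrial formyltetrahydrofolate dehydrogenase, had the largest estimate. Its counts were 218 and 219 for the control ASO and 3692 and 2935 for the CELF2 ASO, which gave 7.79 and 9.33 CPM against 133 and 123 CPM. ALDH1L2 (ENSG00000136010, chromosome 12, 105019784 to 105084577, minus strand) rose 15.0-fold, from 8.56 ± 1.09 to 128 ± 7.27 CPM (SD, n = 2; log2 fold change 3.90, standard error 0.11, edgeR adjusted p = 3.25e-06). Its rank was 97 of 19511 genes from the largest rise. The control pair was 0.26 apart on the log2 scale, the widest control pair among the 10 enzymes and small beside the change. Its cytosolic paralogue ALDH1L1, in the list of other folate genes, had 39 and 22 counts in the control and 62 and 53 in the CELF2 ASO libraries (log2 fold change 0.91, edgeR adjusted p = 0.0194). The ALDH1L1 call was lost without control ASO library 2 (edgeR adjusted p = 0.160) and with DESeq2 (adjusted p = 0.0846).

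The 2 cytosolic folate enzymes fell. MTHFD1 carries the cytosolic synthetase, cyclohydrolase and dehydrogenase activities in 1 protein and had 313 and 313 CPM in the control and 230 and 231 CPM in the CELF2 ASO libraries. MTHFD1 (ENSG00000100714, chromosome 14, 64388031 to 64463457, plus strand) was 1.36-fold lower (log2 fold change -0.44, standard error 0.07, edgeR adjusted p = 0.00118). Libraries of a pair agreed closely here, within 0.01 on the log2 scale. Summed over the 4 libraries, the pseudogene MTHFD1P1 held 2.83% as many counts as MTHFD1. It had 193 and 166 counts in the control and 244 and 189 in the CELF2 ASO libraries.

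SHMT1, the cytosolic serine hydroxymethyltransferase, had 65.2 and 63.7 CPM in the control and 50.2 and 50.9 CPM in the CELF2 ASO libraries. SHMT1 (ENSG00000176974, chromosome 17, 18327860 to 18363563, minus strand) was 1.28-fold lower (log2 fold change -0.35, standard error 0.08, edgeR adjusted p = 0.0059). The groups did not overlap, and the call was lost without control ASO library 1 (adjusted p = 0.0908) or library 2 (adjusted p = 0.0669). Together, SHMT1 and MTHFD1 summed to 378 and 377 CPM in the control and 280.0 and 282 CPM in the CELF2 ASO libraries.

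**Figure D2:**
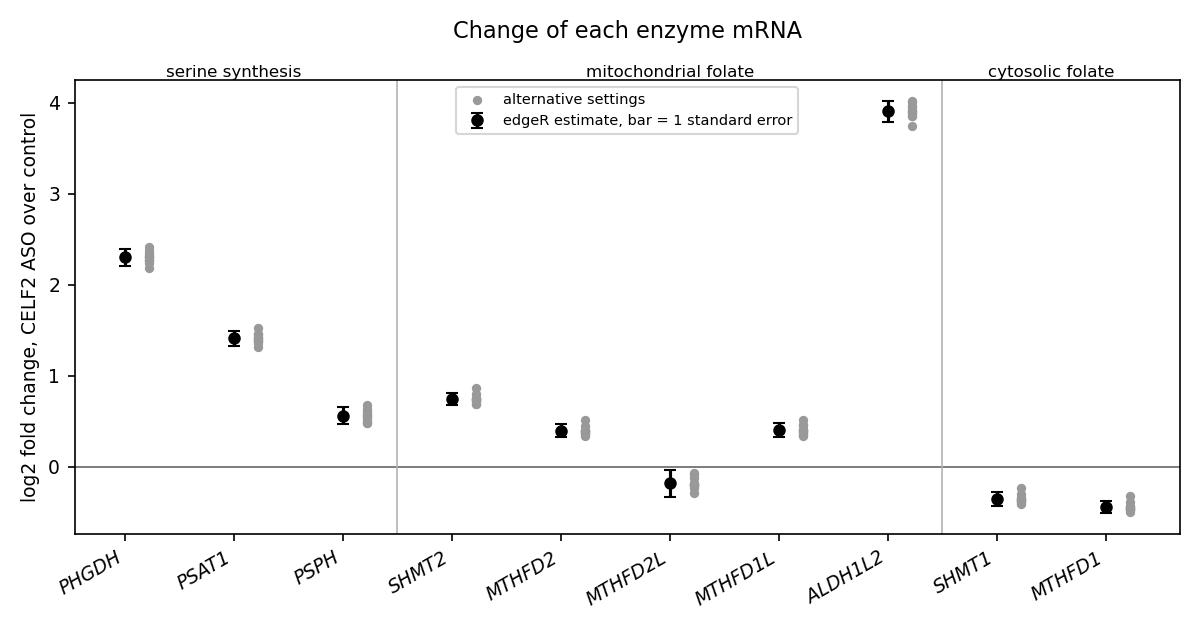
Log2 fold change of each enzyme mRNA, CELF2 ASO over control ASO (black points, bars of 1 standard error from the edgeR fit), with grey points for the same value under the alternative settings. The 3 serine enzymes and 4 of 5 mitochondrial folate enzymes lie above 0 and SHMT1, MTHFD1 and MTHFD2L below it under every setting drawn, and ALDH1L2 stays between 3.75 and 4.02.

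The opposite directions changed the balance of SHMT2 to SHMT1 and of MTHFD1L to MTHFD1 within a library. No scaling of libraries can move such a ratio. Levels of different genes were compared as CPM per kilobase of annotated exon. The SHMT2 level was 9.71 and 10.3 times the SHMT1 level in the control and 21.8 and 20.8 times in the CELF2 ASO libraries. That is a 2.14-fold shift toward the mitochondrial enzyme. The log2 ratio of MTHFD1L to MTHFD1 was -0.80 and -0.84 in the control and -0.02 and 0.07 in the CELF2 ASO libraries, a 1.79-fold shift in the same direction. MTHFD2 exceeded MTHFD2L 76.0- and 77.5-fold in the control and 125- and 105-fold in the CELF2 ASO libraries, a difference of 0.58 in the log2 ratio. Both of these enzymes are mitochondrial, and MTHFD2L by itself did not pass. The level of a ratio, but not its change between groups, depends on the gene length used. With the longest transcript as length, SHMT2 was 5.20 and 5.51 times SHMT1 in the control and 11.7 and 11.2 times with the CELF2 ASO. MTHFD2 was then 26.9 and 27.4 times MTHFD2L in the control and 44.2 and 37.2 times with the CELF2 ASO. For each of the 3 ratios the groups did not overlap. This follows from the single enzymes, whose groups lay apart in opposite directions, and adds nothing to them. The two-sided exact permutation test gave p = 0.333, the smallest p that 2 libraries against 2 allow, so it cannot decide whether a ratio changed.

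**Figure D3:**
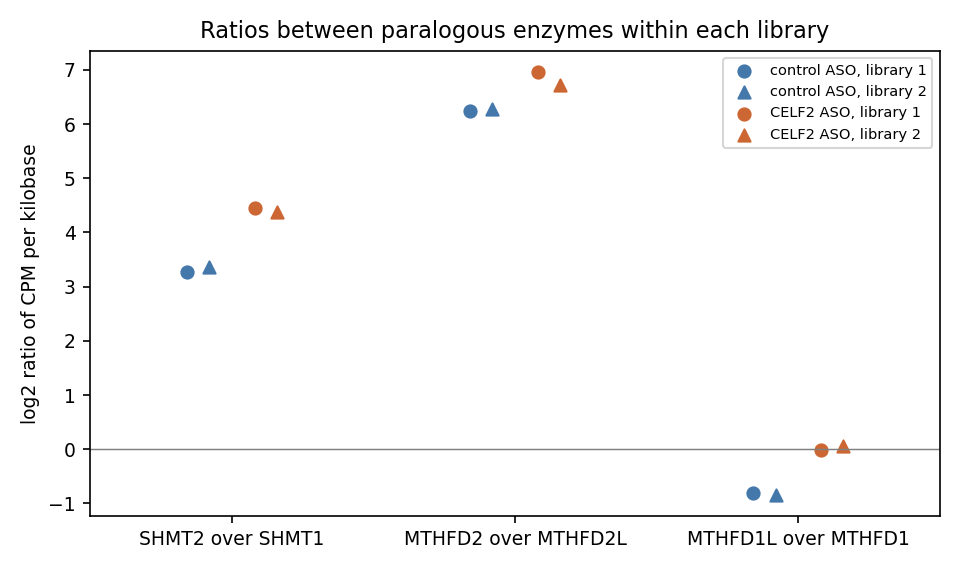
Log2 ratio of CPM per kilobase between paralogous enzymes in each of the 4 libraries, control ASO in blue and CELF2 ASO in orange, with a line at equal levels. Every CELF2 ASO point lies above both control points of its pair, on average by 2.14-, 1.49- and 1.79-fold from left to right.

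Per kilobase, SHMT2 was the most abundant of the 10 mRNAs in both groups, at 88.4 ± 2.04 CPM per kilobase in the control and 148 ± 3.41 with the CELF2 ASO (SD, n = 2). MTHFD2 at 50.5 ± 0.931 and PSAT1 at 50.0 ± 3.51 came next in the control and did not differ beyond their spread, ahead of MTHFD1 at 33.4 ± 0.0405. Below them, MTHFD1L had 18.9 ± 0.285 and PSPH 14.0 ± 0.67 CPM per kilobase. PHGDH followed at 10.2 ± 0.921 and SHMT1 at 8.85 ± 0.148. ALDH1L2 at 1.01 ± 0.128 and MTHFD2L at 0.657 ± 0.00339 were the lowest. With the CELF2 ASO, PSAT1 moved to the second place at 133 ± 3.53, PHGDH to the fourth at 50.3 ± 2.11 and MTHFD1 to the sixth at 24.6 ± 0.0847, while ALDH1L2 reached 15.0 ± 0.855. These places depend on the length used for some genes. The exons of PHGDH span 9.217 kilobases when all annotated transcripts are joined and 3.18 in the longest transcript, which would put PHGDH at 29.7 ± 2.67 CPM per kilobase in the control and at the second place, 146 ± 6.11, with the CELF2 ASO.

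All 10 enzymes summed to 1381 and 1426 CPM in the control and to 2433 and 2350 CPM in the CELF2 ASO libraries, 1.70 times the control mean. In CPM, PHGDH gained 369, SHMT2 289, PSAT1 181 and ALDH1L2 119, and MTHFD1 fell by 82.4. Within the control pair the enzymes differed by a median of 0.04 on the log2 scale and within the CELF2 ASO pair by 0.07. The same medians were 0.12 and 0.21 for 19411 genes with a count in every library. Those genes were not matched to the enzymes for count level, on which such differences depend.

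**Figure D4:**
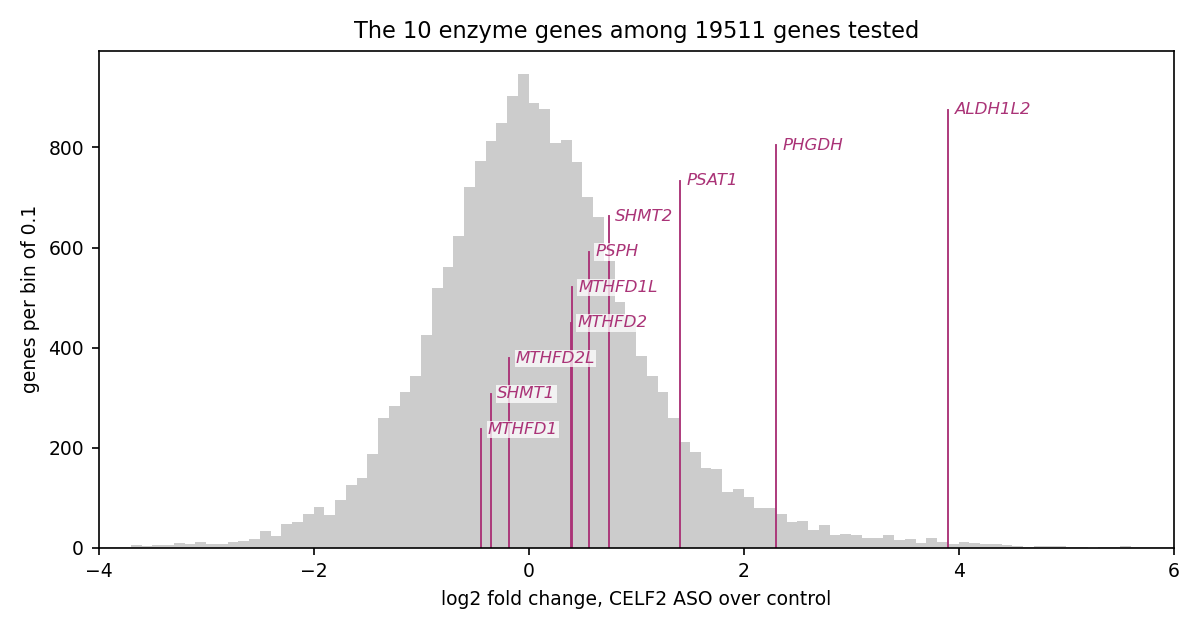
Distribution of log2 fold changes over the 19511 genes tested (grey, bins of 0.1), with the 10 enzyme genes marked by lines whose height carries no value. ALDH1L2, PHGDH and PSAT1 lie in the right tail and the other 7 within the bulk of the distribution, and 45 genes fall outside the range drawn.

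Other parts of the pathway did not share 1 direction. Over 7 further lists of folate, glycine, methionine, serine, glycolysis and purine genes, 72 of 82 genes were tested, of which 16 rose and 34 fell. Their median log2 fold change was -0.24, beside 0.04 over all genes. Over all genes tested 27.6% rose and 28.0% fell, the background for the counts of each list.

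Genes that supply, hold and use folate moved both ways. Of 11 tested members of 15, 3 rose, near the share over all genes (27.6%), and 5 fell, where 28.0% of all genes did. With DESeq2 1 rose. TYMS, thymidylate synthase, had 47.1 and 46.8 CPM in the control and 16.8 and 14.4 CPM in the CELF2 ASO libraries, a 3.01-fold fall (edgeR adjusted p = 2.78e-05). The reduced folate carrier SLC19A1 fell 3.48-fold, from 141 and 149 CPM to 50.3 and 32.8 CPM (edgeR adjusted p = 0.00104). FPGS, which retains folates in the cell by adding glutamates, fell 2.67-fold (edgeR adjusted p = 1.55e-05), and MTFMT, which formylates the mitochondrial initiator tRNA, fell 2.07-fold (edgeR adjusted p = 0.000317).

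Of the glycine cleavage and choline-derived one-carbon list, 8 of 10 genes were tested, 2 rose and 2 fell, near the shares over all genes (27.6% and 28.0%). With either control ASO library left out 1 fell, and with a filter at 1 CPM 1 rose. GLDC, the glycine decarboxylase, had 67.7 and 73.3 CPM in the control and 31.3 and 19.0 CPM in the CELF2 ASO libraries, a 2.79-fold fall (edgeR adjusted p = 0.00458). SARDH, sarcosine dehydrogenase, was 2.95-fold lower (edgeR adjusted p = 0.0111). It did not pass without control ASO library 1 (adjusted p = 0.0636) or library 2 (adjusted p = 0.0645). Its relative DMGDH, dimethylglycine dehydrogenase, rose 13.7-fold, from 31 and 16 counts to 339 and 306 counts (edgeR adjusted p = 1.6e-05). BHMT, which uses betaine to remethylate homocysteine, had 1 and 0 counts in the control and 17 and 18 in the CELF2 ASO libraries.

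In the methionine cycle and transsulfuration list, 13 of 15 genes were tested. Of these, 3 rose and 4 fell, near the shares over all genes (27.6% and 28.0%). The rises numbered 6 without CELF2 ASO library 2 and 5 with library totals alone or a filter at 1 CPM. Both enzymes that carry sulfur from homocysteine to cysteine were among the rises, CTH by 7.71-fold, from 3.82 and 4.26 CPM to 32.1 and 30.2 CPM (edgeR adjusted p = 7.34e-06), and CBS by 2.09-fold (edgeR adjusted p = 0.000106). AHCY, which splits S-adenosylhomocysteine, fell 2.07-fold (edgeR adjusted p = 0.00011), and MMACHC, a cobalamin-processing protein, fell 1.5-fold (edgeR adjusted p = 0.000523).

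Among carriers of serine and glycine, 12 of 13 were tested, 5 rose and 5 fell, where 27.6% and 28.0% of all genes did. SLC6A9, a glycine transporter of the cell membrane, rose from 56.9 and 56.6 CPM to 331 and 333 CPM (edgeR adjusted p = 3.24e-06). The neutral amino acid carrier SLC38A2 rose 2.99-fold (edgeR adjusted p = 9.42e-06). SLC38A5 fell 2.51-fold, from 1204 and 1209 CPM to 495 and 465 CPM (edgeR adjusted p = 1.47e-05). SFXN1, which carries serine into mitochondria, the compartment of SHMT2, fell 2.32-fold, from 115 CPM in each control library to 51.6 and 47.3 CPM (edgeR adjusted p = 2.65e-05).

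In the list of enzymes that consume serine or glycine, 14 of 15 genes were tested. Of these, 3 rose and 6 fell, where 27.6% and 28.0% of all genes did. The list and its falls also hold GCAT, which yields glycine instead. The rises numbered 5 without CELF2 ASO library 1 or with library totals alone. SARS1, the cytosolic seryl-tRNA synthetase, rose 2.93-fold (edgeR adjusted p = 1.24e-05). PTDSS1, which makes phosphatidylserine, fell 3.28-fold, from 526 and 509 CPM to 176 and 139 CPM (edgeR adjusted p = 2.78e-05). GCAT, a mitochondrial enzyme of threonine breakdown that yields glycine, fell 2.2-fold (edgeR adjusted p = 5.11e-05), and ALAS1, which uses glycine to start heme synthesis, fell 1.68-fold (edgeR adjusted p = 0.000181).

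Glycolytic genes around the precursor 3-phosphoglycerate and purine enzymes fell, with no rise in either list. Of 8 tested glycolytic genes 6 fell, where 28.0% of all genes fell, and 1 rose without CELF2 ASO library 1. PGAM1, which converts 3-phosphoglycerate onward in glycolysis, had 214 and 216 CPM in the control and 78.0 and 88.8 CPM in the CELF2 ASO libraries, a 2.58-fold fall (edgeR adjusted p = 2.36e-05). GAPDH fell 2.59-fold (edgeR adjusted p = 1.31e-05), ENO1 2.46-fold (edgeR adjusted p = 1.54e-05) and PKM 2.86-fold (edgeR adjusted p = 3.45e-05). Reads may be shared with processed copies of these genes, which were not examined. All 6 purine genes tested fell, and their median was -0.65 on the log2 scale. PFAS fell 3.66-fold (edgeR adjusted p = 8.22e-05), and ATIC, 1 of the 2 enzymes that take a formyl group from folate in purine synthesis, fell 1.62-fold (edgeR adjusted p = 0.000166).

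**Figure D5:**
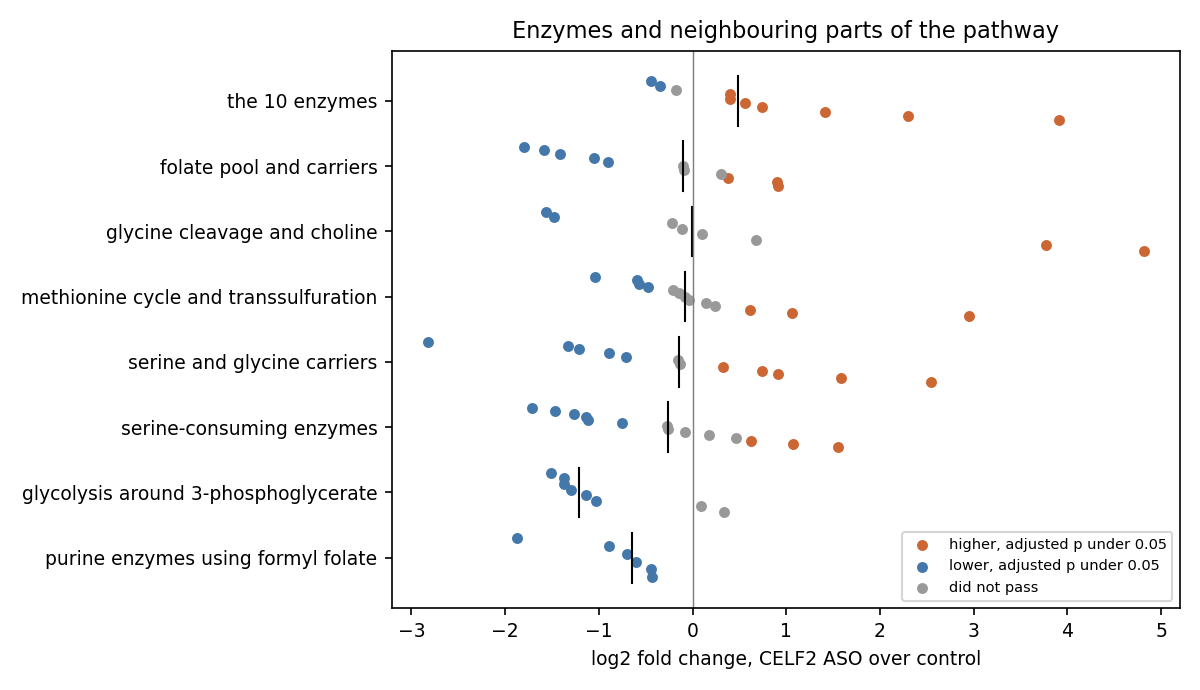
Log2 fold change of every tested gene in the 10 enzymes and in 7 lists of neighbouring genes, coloured by the edgeR call, with a black line at each list's median and points spread vertically only for legibility. The enzymes have a median of 0.48, the purine list lies below 0 throughout, and the other lists hold genes on both sides of 0.

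ATF4, a known transcriptional regulator of several of these enzymes, had 248 and 258 CPM in the control and 1153 and 1270 CPM in the CELF2 ASO libraries (log2 fold change 2.26, edgeR adjusted p = 5.48e-06). Both CELF2 ASO values lay above both control values, as for the 7 enzymes that rose and for 41.2% of all genes tested. Within the CELF2 ASO pair, library 2 had the higher ATF4 level. PHGDH, PSAT1, PSPH, SHMT2, MTHFD2 and ALDH1L2 were lower there than in library 1, and MTHFD1L was higher. The enzymes differed within this pair by a median of 0.07 on the log2 scale, beside 0.21 over all genes, not matched for count level. The order of 2 libraries so close together says nothing about how ATF4 and the enzymes relate. The part of ATF4 in the enzymes' levels was not tested.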

How the data were processed

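The deposited table gives raw read counts per gene, which the authors made from paired-end reads. The submitters' processing notes name STAR 2.7.11b, featureCounts 2.0.8 (with Subread), bcl2fastq, the build GRCh38 and Salmon 1.10.0, with no order. Not given in the sources used here are the annotation release, strand setting and handling of multi-mapping reads, so reads of overlapping genes on opposite strands cannot be told apart. Of 79029 rows, 97 that name no gene held 1 to 3 counts per library and were left out. Symbols were matched for 61481 IDs, and positions and exon lengths came from GENCODE 29 on GRCh38.

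edgeR 4.0.16 in R 4.3.3 was used on the counts. Low counts were removed by filterByExpr (minimum count 10, minimum total 15), libraries scaled by TMM and the groups compared by a two-sided, robust quasi-likelihood test without covariates, with Benjamini-Hochberg adjustment and a threshold of 0.05. CPM uses TMM-adjusted library sizes. Standard errors are the absolute log2 fold change over the square root of F. The analysis was tested on simulated data, in which few genes changed and both groups had the same spread. The real data differ in both respects. The enzymes, gene lists and tests were chosen with earlier results of these data known. Named genes were CELF2, ATF4, the enzymes and from each list the up to 4 genes of smallest adjusted p, and further list members were named with their values. Single values of some list members are not reported here. Alternatives used DESeq2 1.42.0 and limma 3.58.1 among others. The libraries of a pair differed beyond sampling noise, with a chi-square per degree of freedom of 3.38 for the control and 18.5 for the CELF2 ASO pair. No protein sequence was used here.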

Additional observations from a re-analysis of the deposited data

How the results depend on the processing

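Signs of all 10 enzyme estimates held under all 12 alternative settings, and 114 of 120 alternative calls matched. The 6 that did not were those of SHMT1, MTHFD2 and MTHFD1L without either control library, so leaving out a library gave 5 to 7 enzymes higher and 1 to 2 lower. Over all genes, leaving out a library gave 3564 (without control library 1) to 6214 higher genes. With library totals alone the median over all genes was 0.16 against 0.04, and 20 other pathway genes were higher and 34 lower. With the longest transcript as length, 4 of 10 enzymes kept their place in the control order. The looser motif TGANGNAA was found in 2 enzymes instead of 1. The labels share the numbers 1 and 2 between groups, but nothing states that they pair libraries, and 2 pairs are too few to test it (correlation of the within-pair differences 0.11 over 8677 genes). With the number as a replicate block, 5411 genes were higher and 5379 lower, with 7 enzymes higher and 2 lower, and no enzyme changed its call. A fit without 1 library assumes that the lone library left varies like the other group. MTHFD2L had 145 to 180 counts per library, which limits what its change can show.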
